A study of Mus musculus with 11 samples.

Results

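The fibroblast growth factor (FGF) ligands and receptors described here are 10 genes chosen by name: the ligands Fgf3, Fgf4, Fgf5, Fgf8 and Fgf15, the receptors Fgfr1, Fgfr2, Fgfr3 and Fgfr4, and the FGF binding protein gene Fgfbp1. The choice was made with earlier results of these data known. Shares of members set beside shares of all genes therefore describe the list and do not test it. All 10 were found among the 48952 genes of the bulk table and among the 32285 genes of the single-cell tables. The cells were mouse naive extra-embryonic endoderm (nEnd), stem cells that stand for the primitive endoderm (PrE) of the blastocyst in culture and grow on mouse embryonic fibroblasts in RACL, an RPMI-based medium with Activin A, CHIR99021 and LIF. For the bulk libraries, untreated OCT4-mCherry reporter nEnd was stained for PDGFRA and sorted into cells with PDGFRA and no reporter (Pdgfra+), cells with both (DP) and cells with the reporter and no PDGFRA (Oct4+), with 3 libraries of each. For the single-cell libraries, PDGFRA-sorted nEnd of the EPUc line, in which 4-hydroxytamoxifen (4OHT) removes Oct4 (gene symbol Pou5f1), was cultured either without 4OHT (-4OHT) or with it (+4OHT), with 1 library of each. The cells of both single-cell libraries therefore carry the same inducible alleles and differ in the agent, and each set of libraries comes from 1 reporter or deletion line.

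FGFs are secreted ligands that bind receptor tyrosine kinases together with heparan sulphate on the cell surface, and the activated receptor recruits adaptor proteins that switch on the RAS and ERK kinase cascade. In the mouse blastocyst, epiblast (Epi) cells make Fgf4, and FGF4 acting through Fgfr1 and Fgfr2 directs neighbouring inner cell mass cells towards PrE. Fgf5 and Fgf8 are ligands of the later epiblast, Fgf3 and Fgf15 act in later embryonic patterning, and Fgfbp1 encodes a secreted carrier that releases FGFs from the matrix.

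Fgf3, Fgf4 and Fgf15 are neighbours on the plus strand of chromosome 7 (GRCm38, GENCODE M21), at chr7:144838083-144844436, chr7:144847367-144865243 and chr7:144896531-144900953, so that the 3 genes lie within 62871 bases. Fgf3 and Fgf4 differed in opposite directions between Oct4+ and each of the other sorted populations, which is why the stretches that end at their start sites are shown. The 250 bases before the RefSeq start (GRCm38.p6, plus strand) are at chr7:144838362-144838611 for Fgf3 and at chr7:144861136-144861385 for Fgf4, with capitals for the only match to a searched motif.
Fgf3: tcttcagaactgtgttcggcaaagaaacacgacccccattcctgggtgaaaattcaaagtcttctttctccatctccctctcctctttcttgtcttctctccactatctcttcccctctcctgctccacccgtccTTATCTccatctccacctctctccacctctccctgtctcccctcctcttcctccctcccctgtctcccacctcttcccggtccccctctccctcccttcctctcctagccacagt
Fgf4: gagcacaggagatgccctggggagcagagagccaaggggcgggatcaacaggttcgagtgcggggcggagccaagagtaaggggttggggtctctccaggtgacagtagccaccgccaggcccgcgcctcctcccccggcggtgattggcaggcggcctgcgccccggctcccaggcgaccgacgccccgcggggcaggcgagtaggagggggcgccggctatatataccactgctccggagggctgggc
The motifs searched on both strands over windows of 300 bases (250 before and 50 after the start) were the octamer core ATGCAAA, the SOX core ACAATG, the GATA core AGATAA and the TATA box TATAAA, which share no letters in a way that makes one contain another. The Fgf3 window held 1 match, a GATA core on the opposite strand (TTATCT) that starts at base 136, and the Fgf4 window held none. Only these exact letters were searched, so that variants such as the run tatatata in the printed Fgf4 stretch did not count. Both printed stretches lie inside the GENCODE spans given above, so that the RefSeq starts are not the GENCODE starts. Of 32851 RefSeq promoter windows, 11.2% held the GATA core, 4.63% the octamer core, 12.6% the SOX core and 13.6% the TATA box. The printed Fgf4 stretch held 21 CpG dinucleotides at 71.2% GC, whereas the Fgf3 stretch held 4 at 55.2% GC. A match is a run of letters and was not tested as a site of binding.

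Bulk libraries held 8019631 to 11642571 reads and single-cell libraries a median of 18073 (-4OHT) and 12684.5 (+4OHT) UMIs in 5267 and 6266 cells kept. The study calls the libraries of a population biological replicates, without saying in the sources used whether they came from separate cultures, so that p-values measure the spread between these libraries, which may in part be technical. In bulk libraries a lower level in a population can be fewer expressing cells or less RNA per cell, and these cannot be told apart. Pou5f1 itself lay at 17.5 ± 9.0, 229 ± 90.3 and 981 ± 142 CPM (read counts scaled to library size; mean ± SD, n = 3) in Pdgfra+, DP and Oct4+, in the order of the reporter gates. In single cells Pou5f1 lay at 15.1 CPM (95% Poisson interval 13.6 to 16.8) in endoderm-like -4OHT cells and at 1.74 CPM (1.48 to 2.05) in endoderm-like +4OHT cells, and the part of the gene that 4OHT removes is not given in the sources used here, so that this level does not check the deletion. All 14 endoderm markers had reads in each population, but their summed level was 61886 to 80450 CPM in Pdgfra+, 43231 to 66635 CPM in DP and 451 to 991 CPM in Oct4+. Summed fibroblast markers, which feeder cells would carry, ranged from 50.9 to 143 CPM, from 18.3 to 62.5 CPM and from 17.6 to 166 CPM in the same order. In Pdgfra+ most of the sum was Fbn1 (70.2, 139 and 35.2 CPM), with Col1a1 at 0, 0.398 and 2.61 CPM. In Oct4+ library 1 the sum was led by Col1a1 (68.3 CPM) and Col1a2 (37.0 CPM), which lay at 5.23 and 5.72 CPM in library 2 and lower in library 3.

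The comparison of DP with Pdgfra+ asks how nEnd that still carries OCT4 differs in FGF genes from nEnd that does not. Fgf4, Fgfr1 and Fgfr2 were higher in DP, by 5.71-fold, 4.15-fold and 3.13-fold, and 0 tested members were lower by edgeR, also at an unadjusted p under 0.05 and by DESeq2. Differences were tested over 14185 genes with edgeR's quasi-likelihood test, and the threshold was an absolute log2 fold change above 1.5 at an adjusted p (Benjamini-Hochberg) under 0.05. Of the 10 members, 8 passed the filter on low counts, and 3 of these 8 were past the threshold against 3.89% of all genes tested (3.20% higher and 0.691% lower in DP). Fgf8 and Fgf15 were below the filter. The median log2 difference of the 8 was 1.14, and that of all genes tested was 0.02.

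Fgf4, the ligand that epiblast cells send to the PrE, was measured at 0.610, 0.498 and 0.209 CPM in Pdgfra+ libraries 1 to 3, at 3.24, 2.71 and 1.57 CPM in DP, and at 104, 148 and 69.3 CPM in Oct4+. The 3 populations did not overlap, with DP between the others and much nearer to Pdgfra+ in CPM. Of all genes tested, 34.2% had no overlap between DP and Pdgfra+, 62.6% between DP and Oct4+ and 69.3% between Oct4+ and Pdgfra+. The log2 difference of Fgf4 between DP and Pdgfra+ was 2.5 (SE 0.52, adjusted p = 0.0263, edgeR). The counts behind the low values were 2 to 5 reads per Pdgfra+ library and 12 to 26 reads per DP library. On the log2 scale, DP lay at 0.280 of the way from Pdgfra+ to Oct4+, and in CPM its level was 2.34% of the Oct4+ mean.

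**Figure D1:**
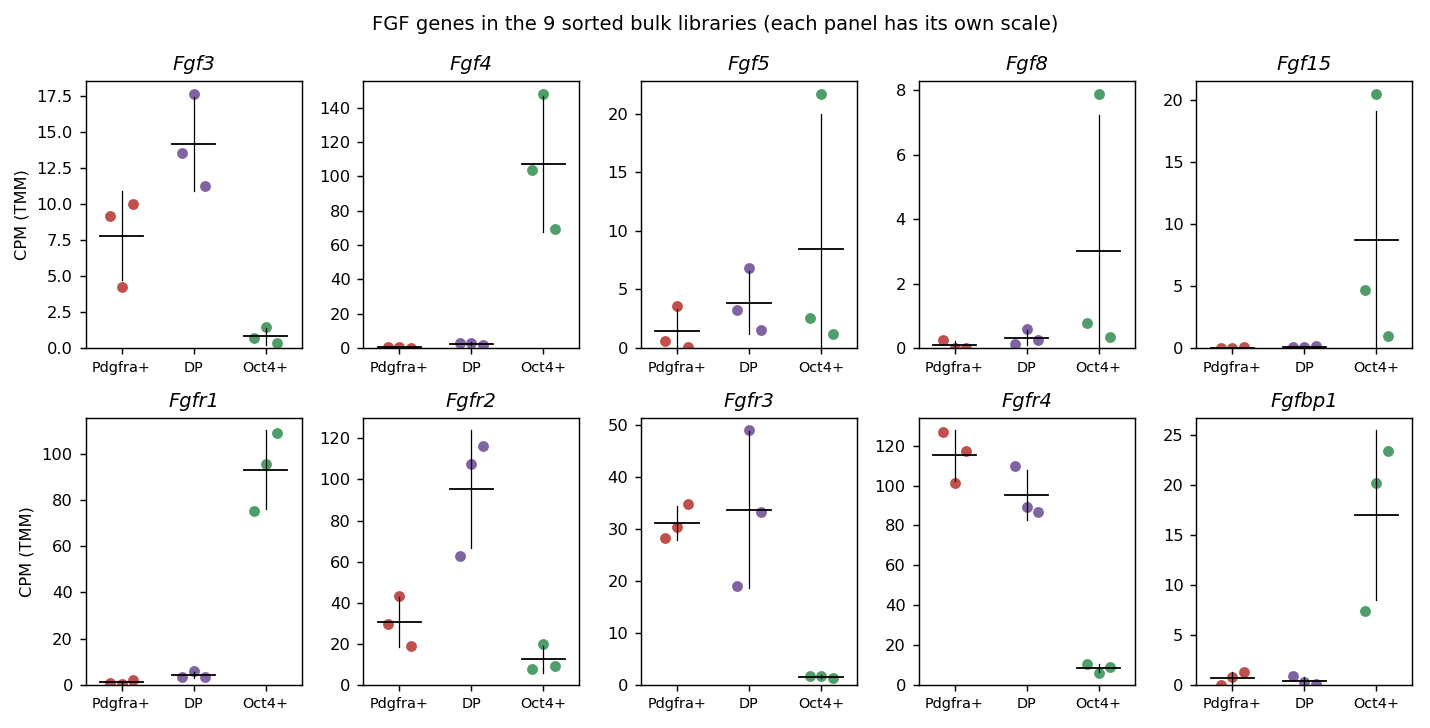
Level of each of the 10 FGF genes (vertical axis, CPM, own scale per panel) in the Pdgfra+, DP and Oct4+ populations. Points are single libraries, and bars the mean with the SD cut at 0 (n = 3). Fgf4, Fgfr1 and Fgfbp1 were highest in Oct4+ and Fgfr2 in DP, while Fgf3, Fgfr3 and Fgfr4 were lowest in Oct4+.

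Fgfr1, the receptor that both epiblast and PrE use, was measured at 0.977, 0.199 and 1.88 CPM in Pdgfra+, at 3.37, 5.90 and 3.4 CPM in DP, and at 75.2, 95.3 and 109 CPM in Oct4+. It had the same order as Fgf4, without overlap between populations, and the DP level was 4.53% of the Oct4+ mean. The log2 difference between DP and Pdgfra+ was 2.05 (SE 0.51, adjusted p = 0.0432, edgeR). Replicate numbers pair DP with Pdgfra+ libraries, and with the number as a block in a fit of these 6 libraries the difference was 2.13 with an adjusted p of 0.0686 (edgeR), past the threshold no longer. The same 6 libraries without the block gave an adjusted p of 0.0953 (edgeR), and the block with all 9 libraries gave 0.0485 (edgeR).

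Fgfr2, the receptor associated with PrE, was the one member that was past the threshold and higher in DP against both other populations. It was measured at 29.4, 43.4 and 18.8 CPM in Pdgfra+, at 62.8, 107 and 116 CPM in DP and at 7.67, 20.1 and 9.20 CPM in Oct4+. Every DP library was above every library of the other populations, while Oct4+ library 2 lay above Pdgfra+ library 3. The log2 difference between DP and Pdgfra+ was 1.64 (SE 0.41, adjusted p = 0.0427, edgeR).

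These 3 calls depended on single libraries. Leaving out Pdgfra+ library 2, Pdgfra+ library 3 or DP library 2 left 0 of the 8 tested members past the threshold, leaving out Pdgfra+ library 1 or DP library 3 left 1, which was Fgf4, and leaving out DP library 1 left 3. All 3 kept a positive difference each time, between 2.17 and 2.78 for Fgf4, between 1.54 and 2.90 for Fgfr1 and between 1.39 and 1.99 for Fgfr2.

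Epiblast markers moved in the same direction as Fgf4 and Fgfr1. Of 12 epiblast markers, 9 were past the threshold and higher in DP than in Pdgfra+, and the sum over the list ran from 331 to 454 CPM in Pdgfra+, from 940 to 1678 CPM in DP and from 4502 to 6407 CPM in Oct4+. As a percentage of the Oct4+ mean, the DP level was 2.34% for Fgf4 and 4.53% for Fgfr1, and over the 12 epiblast markers it ran from 2.57% (Tdgf1) through 2.98% (Nanog), 4.80% (Sox2) and 15.4% (Zfp42) to 61.3% (L1td1), with Pou5f1 at 23.4%. Whether epiblast-like cells in the DP gate account for Fgf4 and Fgfr1 in DP was not tested. Fgfr2 had a DP level of 774% of the Oct4+ mean. The endoderm markers Cubn and Amn encode an endocytic receptor complex of visceral endoderm. They were the 2 of 14 endoderm markers past the threshold and higher in DP than in Pdgfra+, while 4 of the 14 had a positive log2 difference.

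The other receptors did not separate DP from Pdgfra+ by this test. Fgfr4 was measured at 127, 102 and 117 CPM in Pdgfra+ and at 110, 89.3 and 86.7 CPM in DP, a log2 difference of -0.27 (SE 0.19, adjusted p = 0.384, edgeR). Fgfr3 was measured at 28.3, 30.3 and 34.8 CPM in Pdgfra+ and at 18.9, 49.0 and 33.2 CPM in DP, a difference of 0.12 (SE 0.30, adjusted p = 0.836, edgeR). The libraries overlapped for both receptors, and the sign of the Fgfr3 difference turned without DP library 2.

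Among the remaining ligands, Fgf3 was measured at 9.15, 4.28 and 10.0 CPM in Pdgfra+ and at 13.6, 17.7 and 11.2 CPM in DP. Every DP library was above every Pdgfra+ library, but the log2 difference of 0.86 (SE 0.44, adjusted p = 0.250, edgeR) missed the threshold. Fgf5 ran from 0.104 to 3.59 CPM in Pdgfra+ and from 1.57 to 6.84 CPM in DP, with overlap (log2 difference 1.41, adjusted p = 0.493, edgeR). Fgf8 had 0 to 2 reads and Fgf15 0 or 1 read in each Pdgfra+ library, and neither exceeded 5 reads in any DP library. Fgfbp1 ran from 0 to 1.25 CPM over the 6 Pdgfra+ and DP libraries, with a log2 difference of -0.75 (adjusted p = 0.675, edgeR).

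The comparison of DP with Oct4+ sets OCT4-carrying endoderm beside the epiblast-like cells that arise in the same culture. Ligands and receptors were found on both sides, with Fgf3, Fgfr2, Fgfr3 and Fgfr4 higher in DP by 17-fold, 7.74-fold, 21.1-fold and 11.4-fold, and Fgf4, Fgfr1 and Fgfbp1 lower by 42.7-fold, 22.1-fold and 41.1-fold. These are 7 of the 8 tested members, against 27.7% of all genes tested (13.1% higher and 14.6% lower in DP). Fgfbp1 had 7, 2 and 1 reads in DP and 0, 8 and 12 in Pdgfra+. It passed the filter on low counts only through Oct4+, the population where it was higher. The adjusted p-values of the 7 lay between 2.63e-06 (Fgfr4) and 0.000649 (Fgfbp1) by edgeR's quasi-likelihood test.

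Fgfr3 was measured at 1.78, 1.68 and 1.33 CPM in Oct4+, below every DP and every Pdgfra+ library. Its log2 difference of DP from Oct4+ was 4.38 (SE 0.36, adjusted p = 1.1e-05, edgeR). Fgfr4, at 10.2, 6.01 and 8.76 CPM in Oct4+, gave 3.51 (SE 0.21, adjusted p = 2.63e-06, edgeR). Both receptors were thus low in the population without PDGFRA.

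Fgf3 was measured at 0.698, 1.48 and 0.333 CPM in Oct4+, below all libraries of the other populations, and its log2 difference of DP from Oct4+ was 4.06 (SE 0.52, adjusted p = 0.000139, edgeR). Its neighbour Fgf4 gave -5.40 (SE 0.37, adjusted p = 4.77e-06, edgeR), so that the adjacent genes differed in opposite directions between the same libraries. Fgfbp1, at 7.36, 20.2 and 23.4 CPM in Oct4+, gave -5.31 (SE 0.88, adjusted p = 0.000649, edgeR).

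Fgf5, Fgf8 and Fgf15 varied widely between the Oct4+ libraries. In Oct4+ libraries 1 to 3, Fgf5 was measured at 2.56, 21.7 and 1.22 CPM, Fgf8 at 0.775, 7.89 and 0.333 CPM and Fgf15 at 4.65, 20.5 and 0.998 CPM. Library 2 was thus the highest for each of these ligands, of which Fgf5 and Fgf8 mark the later epiblast. For Fgf15, every Oct4+ library lay above every DP and Pdgfra+ library, which had at most 0.131 CPM. The Fgf5 difference of DP from Oct4+ was -1.12 (adjusted p = 0.416, edgeR), and without Oct4+ library 2 it turned to 1.02. Fgf8 and Fgf15, below the filter in the fit reported, gave -3.24 (adjusted p = 0.0267) and -6.18 (adjusted p = 3.79e-06) in DESeq2, which was run as an alternative.

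**Figure D2:**
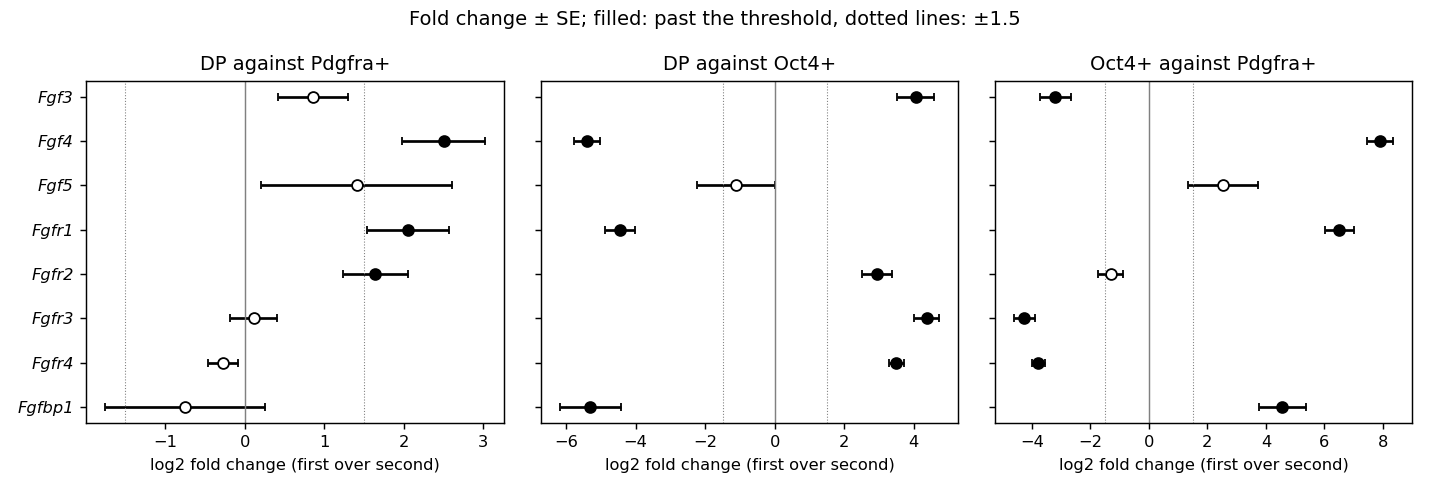
Log2 difference of the 8 tested FGF genes in each pair of populations (horizontal axis, with its standard error), with filled points for genes past the threshold. Fgf4 and Fgfr1 stepped up from Pdgfra+ to DP and from DP to Oct4+, while Fgfr3 and Fgfr4 differed only against Oct4+ in these tests.

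Oct4+ and Pdgfra+ shared libraries with the previous comparisons, so that its values are given beside them. Fgf4 (log2 difference 7.91), Fgfr1 (6.51) and Fgfbp1 (4.57) were higher in Oct4+, and Fgf3 (-3.20), Fgfr3 (-4.26) and Fgfr4 (-3.78) were lower, which are 6 of 8 tested members against 32.0% of all genes tested (17.3% higher and 14.7% lower). Their adjusted p-values lay between 1.5e-06 (Fgfr4) and 0.000785 (Fgfbp1), by edgeR. Here too Fgfbp1 was tested only because Oct4+, where it was higher, carried it over the filter. Fgfr2 was lower in Oct4+ by 1.31 on the log2 scale (SE 0.42, adjusted p = 0.0186, edgeR), which is under the size required. Without Pdgfra+ library 3 (-1.60) or Oct4+ library 2 (-1.86) it was past the threshold. Fgf5 gave 2.53 (SE 1.20, adjusted p = 0.0882, edgeR). Leaving out Pdgfra+ library 2 or Oct4+ library 3 also put Fgf5 past the threshold in edgeR, with adjusted p-values of 0.0253 and 0.0417.

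Levels of different genes were set side by side per kilobase of exon (CPM per kb, mean ± SD, n = 3). In Pdgfra+, Fgfr4 led the receptors at 32.5 ± 3.60, followed by Fgfr3 at 4.35 ± 0.461 and Fgfr2 at 2.96 ± 1.20, which do not differ beyond their spread, and by Fgfr1 at 0.103 ± 0.0851. In DP the order was Fgfr4 at 26.9 ± 3.58, Fgfr2 at 9.24 ± 2.77, Fgfr3 at 4.71 ± 2.10 and Fgfr1 at 0.428 ± 0.147. In Oct4+ the order was headed by Fgfr1 at 9.43 ± 1.72, with Fgfr4 at 2.35 ± 0.604, Fgfr2 at 1.19 ± 0.657 and Fgfr3 at 0.223 ± 0.0331 CPM per kb. By this measure the leading receptor was Fgfr4 in both PDGFRA-positive populations and Fgfr1 in the epiblast-like one. In DP the lead of Fgfr4 over Fgfr2 rests on their exon lengths, 3.54 and 10.33 kb. Not divided by length, they lay at 95.3 and 95.5 CPM. In the -4OHT single cells described below, an endoderm-like cluster led by Amn and Cubn had 15.3 CPM of Fgfr4 and 30.0 CPM of Fgfr2. The other endoderm-like cells had 20.5 and 3.70 CPM. Among the 5 ligands described here the leader was Fgf3 in Pdgfra+ (3.36 ± 1.33) and DP (6.09 ± 1.41) and Fgf4 in Oct4+ (33.5 ± 12.4 CPM per kb).

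Some other genes followed the members across the 9 libraries closely. The genes most like Fgf4 by Pearson's r of log2 CPM were Pipox and H1f10 (r = 0.997 and 0.995), those most like Fgfr1 were Ric3, Sohlh2 and Ell2 (0.998 to 0.993), and those most like Fgf3 were Tbc1d14, St3gal1 and Sox7 (0.993 to 0.983), of 10517 genes compared. Many genes share the difference between populations, since 492 genes reached r over 0.95 with Fgf4, 300 with Fgfr1, 638 with Fgfr3 and 989 with Fgfr4. Fgfr2 had 17 such genes, led by Snx10, Nr2c2ap and Mogat2 (0.981 to 0.979), and Fgfbp1 had 20, led by Pde7a, Ywhaq and Aopep (0.976 to 0.972). These correlations describe 9 libraries in 3 clusters and carry no test.

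The wider FGF pathway was counted over lists of genes by role. Of all genes tested, 3.20% were past the threshold and higher in DP than in Pdgfra+, and 0.691% were lower. Between DP and Pdgfra+, 1 of 7 tested other ligands was past the threshold, Fgf2, at 2.88 ± 1.62 CPM in DP and 16.2 ± 5.90 CPM in Pdgfra+ (log2 difference -2.48). By edgeR, 0 of 14 co-receptors and binding proteins and 0 of 23 receptor-proximal adaptors were past it, although 5 of each list had an unadjusted p under 0.05 and DESeq2 put 1 of each past it, both lower in DP. Of 13 heparan sulphate genes, Sulf1, an extracellular sulphatase that trims heparan sulphate, was higher (1.65) and Ndst1, an N-sulphating enzyme, was lower (-1.85). Of 18 ERK feedback and target genes, 9 were higher and 1 lower at an unadjusted p under 0.05 (edgeR). By DESeq2, 3 were past the threshold and higher and 0 lower. By edgeR, 2 were past it and higher and 0 lower, with a list median of 0.35. Dusp4, a phosphatase that acts on ERK, was at 86.5 ± 68.9 CPM in DP and 17.1 ± 11.1 CPM in Pdgfra+ (2.33, SE 0.59, adjusted p = 0.0451, edgeR). The other was Etv1, an ERK-responsive transcription factor gene under the level at which list genes are named and given because the count is small, at 1.14 CPM in DP with no read in any Pdgfra+ library.

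Other ligands, co-receptors and heparan sulphate genes differed in both directions between DP and Oct4+. In DP, Fgf10 was at 105 ± 7.16 CPM against 3.4 ± 1.76 CPM in Oct4+ (log2 difference 4.97), the co-receptor Klb at 246 ± 69.5 against 4.25 ± 3.61 CPM (5.87), and the heparan sulphate sulphotransferase Hs3st1 at 275 ± 111 against 3.06 ± 2.07 CPM (6.50). The receptor partner Flrt3 (5.69) and the glypican Gpc3 (3.46) were also higher, and Fgf1 (-4.13), Ncam1 (-2.57) and Gpc1 (-1.5) were lower. Against 13.1% higher and 14.6% lower of all genes tested, the lists held 2 higher and 2 lower of 7 other ligands, 4 higher and 3 lower of 14 co-receptors, and 3 higher and 0 lower of 13 heparan sulphate genes by edgeR. Of the heparan sulphate genes, 9 were higher and 2 lower at an unadjusted p under 0.05 (edgeR), and 3 were higher and 0 lower by DESeq2.

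ERK feedback and target genes were past the threshold in Oct4+ in both directions, more of them higher. Between Oct4+ and Pdgfra+, 10 of 18 ERK feedback and target genes were higher and 1 was lower, against 17.3% and 14.7% of all genes tested. The median of the list was 1.91 against 0.01 over all genes tested. Etv5, a transcription factor gene induced by ERK, was at 342 ± 73.7 CPM in Oct4+, 18.6 ± 5.09 CPM in DP and 7.03 ± 4.78 CPM in Pdgfra+, and Etv1 was at 27.8 ± 8.86 CPM in Oct4+ with no read in any Pdgfra+ library. Between DP and Oct4+, 5 of 18 were higher in Oct4+ and 2 in DP, against 14.6% and 13.1% of all genes tested. Those in DP were Dusp4, higher in DP than in Oct4+ by 1.74 (SE 0.57, adjusted p = 0.0252, edgeR) as well as higher than in Pdgfra+, and the immediate early gene Ier3 (1.93, SE 0.55, adjusted p = 0.0132, edgeR). The adaptors Gab2 (-4.43) and Frs2 (-1.94), which link receptor to RAS, were the 2 of 23 past the threshold between Oct4+ and Pdgfra+, both lower in Oct4+. That share of 8.70% lay under the 32.0% of all genes tested.

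Single cells showed in which cells each member was read. Clusters were made without any FGF gene and named from marker lists, and 11533 of 14179 barcodes were kept. Endoderm-like cells numbered 1350 of 5267 in -4OHT and 6031 of 6266 in +4OHT, and epiblast-like cells 3668 and 0. The remainder were 2-cell-like (138 and 4), trophectoderm-like (25 and 199) and fibroblast-like (20 and 31) cells and an unnamed cluster led by Lefty1 and Lefty2 (66 and 1). Endoderm-like cells formed 4 clusters, named here by leading genes, with -4OHT and +4OHT numbers of 712 and 12 (Amn/Cubn), 433 and 2147 (Pitx1/Car4), 149 and 2119 (Ccn1/Acta2) and 56 and 1753 (Gkn1/Gkn2). The Amn/Cubn cluster thus held most endoderm-like -4OHT cells and few +4OHT cells, and it had summed epiblast markers of 4077 CPM beside 13499 CPM of endoderm markers. Trophectoderm-like cells had 210 CPM of their own markers beside 5977 CPM of endoderm markers, and fibroblast-like cells 8289 beside 11022 CPM. In 2-cell-like cells, 2-cell markers summed to 1197 CPM beside 7417 CPM of epiblast markers. The part of other cell types in the levels of these classes was not tested. Both libraries shared 21 barcodes, of which 17 were kept. With 1 library per condition there is no test, the intervals below are 95% exact intervals that cover counting error only, and levels are UMIs summed over the cells of a class, in CPM.

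Fgf4 was read almost wholly in epiblast-like cells, which held 2365 of its 2516 UMIs in the -4OHT library. Its level was 32.0 CPM (30.7 to 33.3) in epiblast-like, 29.3 CPM (22.9 to 37.0) in 2-cell-like and 2.39 CPM (1.66 to 3.34) in Amn/Cubn cells. In the other endoderm-like -4OHT cells it was 0.864 CPM (0.347 to 1.78, 7 UMIs). The 20 fibroblast-like -4OHT cells, a class not known for Fgf4, held 4 Fgf4 UMIs, or 7.07 CPM (1.93 to 18.1) at a median depth of 26791 UMIs.

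Amn/Cubn cells also carried epiblast transcripts, to very different degrees. Their summed epiblast markers of 4077 CPM compare with 8357 and 7320 CPM in both epiblast-like clusters. As a percentage of the epiblast-like level, Amn/Cubn cells had 7.48% of Fgf4, 9.18% of Nanog, 9.84% of Sox2, 11.5% of Fgfbp1 and 19.3% of Fgfr1, but 45.4% of Pou5f1. Pitx1/Car4 cells of the same library had 2.66% of Fgf4, 3.4% of Nanog, 2.20% of Sox2 and 4.11% of Fgfr1. Without the 5% of cells per library with the highest doublet scores, the Fgf4 level of endoderm-like -4OHT cells was 0.707 CPM in place of 1.84 CPM and that of Fgfr1 was 1.77 CPM in place of 4.53 CPM. The part of free RNA or of mixed droplets in these levels was not tested further.

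After thinning each cell to 5000 UMIs, 13.8% (12.7 to 15) of epiblast-like cells had a Fgf4 UMI, against 0.428% (0.0883 to 1.25) of Amn/Cubn and 0.465% (0.0564 to 1.67) of Pitx1/Car4 cells in the same library. The unthinned shares were 38.3%, 3.93% and 1.15%, at median depths of 19036.5, 18559 and 12649 UMIs. The thinned shares of both endoderm-like clusters lay within each other's intervals and rest on 3 and 2 cells, whereas the unthinned share was higher in the deeper Amn/Cubn cells, so that no order is read from them.

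**Figure D3:**
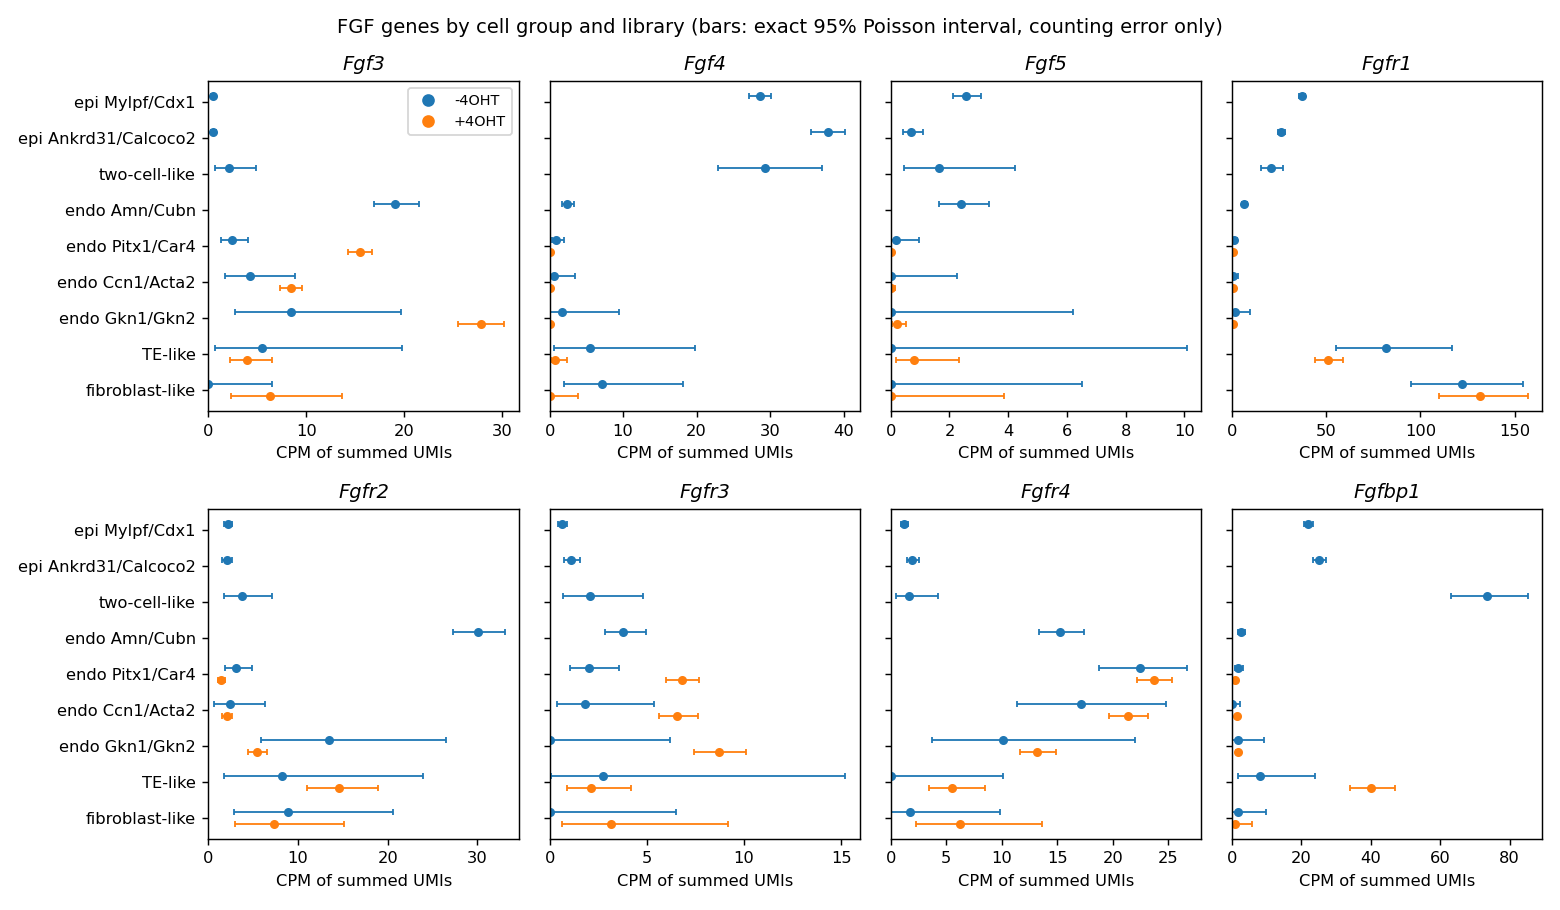
Level of 8 FGF genes (horizontal axis, CPM of summed UMIs on a linear scale of its own per panel, with exact 95% Poisson intervals) in cell groups of at least 20 cells, for -4OHT and +4OHT (epi, epiblast-like; endo, endoderm-like; TE, trophectoderm). Fgf4 was high in epiblast-like and 2-cell-like cells, Fgfr4 in every endoderm-like group and Fgfr1 in fibroblast-like, trophectoderm-like and epiblast-like cells. Fgfr2 was highest in Amn/Cubn cells.

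Fgfr1 was highest in fibroblast-like cells, at 122 CPM (94.9 to 154) in -4OHT and 132 CPM (110 to 157) in +4OHT. Trophectoderm-like cells followed, at 81.9 CPM (55.3 to 117) and 51.2 CPM (44.3 to 59.0), then epiblast-like cells at 33.1 CPM (31.8 to 34.5) and 2-cell-like cells at 20.7 CPM (15.3 to 27.2). Endoderm-like cells had little, at 4.53 CPM (3.69 to 5.50) in -4OHT and 0.585 CPM (0.435 to 0.772) in +4OHT. Of the 101 endoderm-like -4OHT UMIs, 91 lay in Amn/Cubn cells.

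Fgfr2 was highest in the -4OHT Amn/Cubn cells, at 30.0 CPM (27.3 to 33.0). The other endoderm-like -4OHT cells had 3.70 CPM (2.5 to 5.28), epiblast-like cells 2.11 CPM (1.79 to 2.47), and trophectoderm-like +4OHT cells 14.5 CPM (10.9 to 18.9). Those other endoderm-like cells were not alike, with 13.5 CPM in the 56 Gkn1/Gkn2 cells, 3.06 CPM in Pitx1/Car4 and 2.45 CPM in Ccn1/Acta2 cells. Amn/Cubn cells, 13.5% of the cells of that library, held 427 of its 640 Fgfr2 UMIs, and 13.3% (10.8 to 16) of them had a Fgfr2 UMI at 5000 UMIs. In fibroblast-like -4OHT cells the level was 8.84 CPM (2.87 to 20.6).

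In the -4OHT library, endoderm-like cells held 383 of 509 Fgfr4 UMIs. Of 139 Fgfr3 UMIs they held 69, epiblast-like cells 60 and 2-cell-like cells 5. Fgfr4 was read at 15.3 CPM (13.3 to 17.4) in Amn/Cubn, 22.5 CPM (18.8 to 26.6) in Pitx1/Car4 and 17.1 CPM (11.4 to 24.7) in Ccn1/Acta2 cells of -4OHT, and at 1.47 CPM (1.21 to 1.78) in epiblast-like cells. Fgfr3 was at 3.09 CPM (2.41 to 3.91) in endoderm-like -4OHT and 0.812 CPM (0.619 to 1.04) in epiblast-like cells. At 5000 UMIs, 9.17% (7.68 to 10.9) of endoderm-like -4OHT cells had a Fgfr4 UMI and 0.766% (0.509 to 1.10) of epiblast-like cells.

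Fgf3 was read at 19.1 CPM (16.9 to 21.5) in Amn/Cubn cells and at 0.446 CPM (0.307 to 0.627) in epiblast-like cells, the reverse of its neighbour Fgf4. Amn/Cubn cells held 271 of the 340 Fgf3 UMIs of the -4OHT library. In +4OHT the highest level was 27.8 CPM (25.5 to 30.2) in Gkn1/Gkn2 cells.

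Fgfbp1 was highest in 2-cell-like cells with the clusters used here, at 73.6 CPM (63.2 to 85.2; 53.9 to 117 CPM over the alternatives). With the other clustering resolution, trophectoderm-like -4OHT cells were above it at 146 CPM, in place of 8.19 CPM. It was at 23.2 CPM (22.1 to 24.3) in epiblast-like, 40.1 CPM (34.0 to 47.1) in trophectoderm-like +4OHT and 1.26 CPM (1.04 to 1.53) in endoderm-like +4OHT cells. In the bulk libraries, the Oct4+ population that was highest for Fgfbp1 also had the highest summed 2-cell markers, at 408 to 1541 CPM against at most 25 CPM in DP. The part of these cells in the bulk level of Fgfbp1 was not tested.

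Fgf5 differed between the epiblast-like clusters, at 2.56 CPM (2.13 to 3.07) in the one led by Mylpf and Cdx1 and 0.701 CPM (0.422 to 1.09) in the one led by Ankrd31 and Calcoco2. Fgfr1 had the same order, at 37.1 CPM (35.4 to 38.9) and 26.3 CPM (24.4 to 28.3), whereas Fgf4 had the opposite order, at 28.6 CPM (27.1 to 30.2) and 37.9 CPM (35.6 to 40.2). Amn/Cubn cells had as much Fgf5 as Mylpf/Cdx1 cells within these intervals, at 2.39 CPM (1.66 to 3.34), and at 127% of the level over all epiblast-like cells it stood apart from the 7.48% of Fgf4. Fgf8 had 125 UMIs in the -4OHT library, 120 of them in epiblast-like cells, and Fgf15 had 73, of which 69 were in epiblast-like cells. In +4OHT, Fgf8 had 23 UMIs, with 14 in trophectoderm-like cells, and Fgf15 had 0, which allows a level of up to 0.0332 CPM over all cells kept.

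Ligand and receptor transcripts of the same cell were counted at equal depth. Of 3657 epiblast-like cells thinned to 5000 UMIs, 16% had a UMI of at least 1 of the 5 ligands, 16.1% of at least 1 of the 4 receptors and 2.54% (93 cells) of both. Fgfr1 was read in 15% (12 to 18.5) of 505 cells with a Fgf4 UMI and in 14.3% (13.1 to 15.5) of cells without one. These shares are within each other's intervals, so that a difference was not detectable at this depth. Unthinned, the shares were 45.2% and 43.5%.

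UMIs of 2 or more receptors were read in 3.00% of 701 Amn/Cubn cells and in 0.465% of epiblast-like cells. In Amn/Cubn cells, Fgfr1 was read in 6.45% of cells with a Fgfr2 UMI and in 2.14% of cells without one, from 6 and 13 cells. With cells thinned to 10000 UMIs the shares were 2.65% and 4.06%, so that no order is read from them. Mixed droplets can give such pairs, and their part was not tested.

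The comparison of +4OHT with -4OHT asks what loss of Oct4 does to PDGFRA-sorted nEnd, and for the FGF genes it can be made in endoderm-like cells. Over the whole class Fgfr2 was lower in +4OHT by 8.06-fold (6.84 to 9.52), at 20.5 and 2.54 CPM in -4OHT and +4OHT, and Fgfr3 was higher by 2.32-fold (1.80 to 3.02), at 3.09 and 7.17 CPM. These are 2 of the 4 members with at least 5 CPM in 1 library that were past a 2-fold ratio, against 15.6% of all genes at that level (10.5% higher and 5.11% lower). Fgfr2 entered the count only through -4OHT and Fgfr3 only through +4OHT, in each case the library where the gene was higher. Fgf3 had a ratio of 1.21 (1.07 to 1.38) and Fgfr4 of 1.20 (1.07 to 1.34). The classes differ in their make-up, since Amn/Cubn cells were 712 of 1350 in -4OHT and 12 of 6031 in +4OHT.

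**Figure D4:**
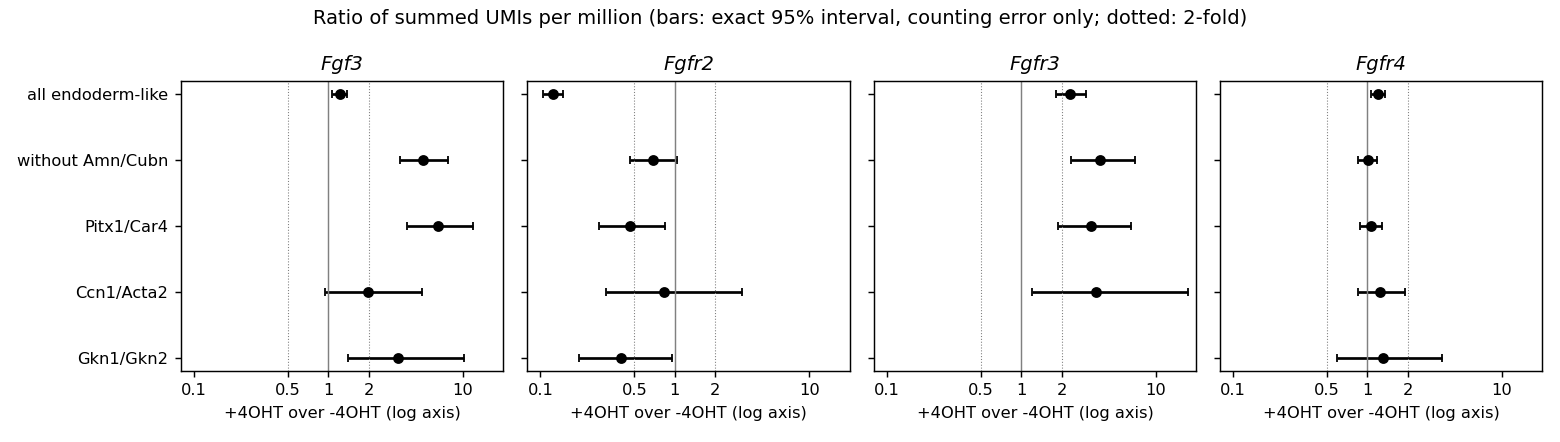
Ratio of the +4OHT to the -4OHT level (log axis, exact 95% intervals of counting error) of the FGF genes over all endoderm-like cells, without Amn/Cubn cells and within clusters. The Fgfr2 ratio moved from 0.124 over the class to 0.684 without Amn/Cubn cells, that of Fgf3 from 1.21 to 5.02, and Fgfr3 has no point in Gkn1/Gkn2 cells because the -4OHT count was 0.

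Without the Amn/Cubn cells, a comparison added after the data were seen, 3 members had at least 5 CPM in 1 library. Of these, 2 were past the fold, Fgf3 and Fgfr3. Both entered the count only through +4OHT, the library where they were higher. The share of genes past the fold was 3.43% (2.48% higher and 0.957% lower), which is given for scale and is no test of these members. Fgf3 was at 3.21 CPM (2.10 to 4.70) in -4OHT and 16.1 CPM (15.3 to 17) in +4OHT, a ratio of 5.02 (3.41 to 7.71), and Fgfr3 at 1.85 and 7.17 CPM, a ratio of 3.88 (2.33 to 6.97). Fgfr4 was at 20.5 CPM in both libraries with a ratio of 1.0 (0.855 to 1.18). Fgfr2, at 3.70 and 2.53 CPM, had a ratio of 0.684 (0.465 to 1.04) in place of 0.124 over the whole class.

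Within clusters, the Fgf3 ratio was 6.48 (3.83 to 11.9) in Pitx1/Car4, 1.96 (0.935 to 4.93) in Ccn1/Acta2 and 3.30 (1.40 to 10.2) in Gkn1/Gkn2 cells. The background shares of genes past the fold in these clusters were 3.37%, 4.09% and 13.0%. The Fgfr3 ratio was 3.33 (1.88 to 6.53) in Pitx1/Car4 and 3.58 (1.21 to 17.5) in Ccn1/Acta2 cells, the latter from 3 UMIs in -4OHT. The Fgfr2 ratio was 0.468 (0.271 to 0.845) in Pitx1/Car4, 0.834 (0.307 to 3.17) in Ccn1/Acta2 and 0.398 (0.195 to 0.946) in Gkn1/Gkn2 cells, so that it was below 1 within each cluster, with an interval that excluded 1 in all but Ccn1/Acta2. The -4OHT sides rest on 14, 7 and 5 UMIs of Fgf3 and on 18, 4 and 8 UMIs of Fgfr2, and the clusters differ in how many cells each library gave.

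Fgf4 in endoderm-like cells went from 41 UMIs in -4OHT to 2 UMIs in +4OHT, with levels of 1.84 and 0.0234 CPM and a ratio of 78.5 between them (20.4 to 670). Fgf5 went from 35 to 4 UMIs (33.5-fold lower, 12 to 130) and Fgfr1 from 101 to 50 UMIs (7.73-fold lower, 5.46 to 11.1). All 3 were under 5 CPM in both libraries, and the +4OHT library held no epiblast-like cells, which in -4OHT carried most of the Fgf4 and Fgfr1 UMIs. Without Amn/Cubn cells, which held 34 of the 35 Fgf5 UMIs and 91 of the 101 Fgfr1 UMIs of endoderm-like -4OHT cells, Fgf5 was at 0.123 and 0.0469 CPM (2.63-fold lower, 0.0534 to 26.6, from 1 and 4 UMIs). Fgfr1 was then at 1.23 and 0.586 CPM (2.11-fold lower, 0.952 to 4.20) and Fgf4 at 0.864 and 0.0234 CPM (36.8-fold lower, 7.02 to 363, from 7 and 2 UMIs). The intervals of Fgf5 and Fgfr1 then included a ratio of 1.

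Of 13 ERK feedback and target genes at 5 CPM or more in endoderm-like cells, 5 were past the fold and lower in +4OHT and 0 higher, against 5.11% and 10.5% of all genes at this level. Within clusters, 0 of 9 were lower and 1 higher in Pitx1/Car4, and 0 of 9 were lower and 0 higher in Ccn1/Acta2 cells. In Gkn1/Gkn2 cells, with only 56 cells in -4OHT, 5 of 13 were lower and 0 higher. In the same order of clusters, 1.04%, 1.52% and 7.19% of all genes were lower and 2.33%, 2.57% and 5.83% higher. Over the whole class, Etv4 went from 26.9 to 1.04 CPM (25.8-fold lower, 20.6 to 32.6), Etv5 from 11.7 to 0.246 CPM (47.6-fold, 30.5 to 78.1) and Dusp4 from 18.5 to 1.01 CPM (18.3-fold, 14.5 to 23.4). Amn/Cubn cells carried the most of these transcripts among endoderm-like cells, with Etv4 at 39.5 CPM against 4.93 CPM in -4OHT Pitx1/Car4 cells. Without Amn/Cubn cells, 0.957% of all genes at 5 CPM or more were lower and 2.48% higher. Of 9 listed genes at that level, 0 were lower and 1, the immediate early gene Egr1, was higher, at 11 and 28.5 CPM. Etv4, Etv5 and Dusp4 were then under 5 CPM in both libraries and left the count. At these low levels they were still lower in +4OHT, Etv4 from 4.81 to 1.04 CPM (4.61-fold, 3.08 to 6.79), Etv5 from 4.19 to 0.246 CPM (17-fold, 9.61 to 30.9) and Dusp4 from 2.34 to 1.01 CPM (2.33-fold, 1.34 to 3.86).

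Cell surface genes of the pathway were past the fold in both directions in +4OHT endoderm-like cells, where 10.5% of all genes at this level were higher and 5.11% lower. Of 13 heparan sulphate genes 4 were higher and 1 lower, among them Hs3st1 at 260 and 904 CPM (3.47-fold, 3.38 to 3.57) and Ext1, a heparan sulphate polymerase, at 61.7 and 210 CPM (3.4-fold, 3.22 to 3.59). Of 10 co-receptors 3 were higher and 1 lower, with Flrt2 at 6.86 and 37.1 CPM and Gpc3 at 83.2 and 27.7 CPM. Of 23 adaptors 5 were higher, including Sos1 (2.04-fold, 1.81 to 2.31), and the single other ligand at this level, Fgf10, was not past the fold. Without Amn/Cubn cells, 2.48% of all genes at this level were higher and 0.957% lower. Then 1 of 12 heparan sulphate genes and 1 of 23 adaptors were higher and 0 of each lower. The 1 other ligand at this level was then past the fold and higher in +4OHT. Within clusters, the 1 other ligand at this level was higher in Pitx1/Car4 and Gkn1/Gkn2 cells and not past the fold in Ccn1/Acta2 cells. Of 11 co-receptors 2 were higher and 2 lower. Flrt2 (2.18-fold, 1.84 to 2.61) stayed higher and Gpc3 (3.55-fold, 3.27 to 3.85) lower.

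**Figure D5:**
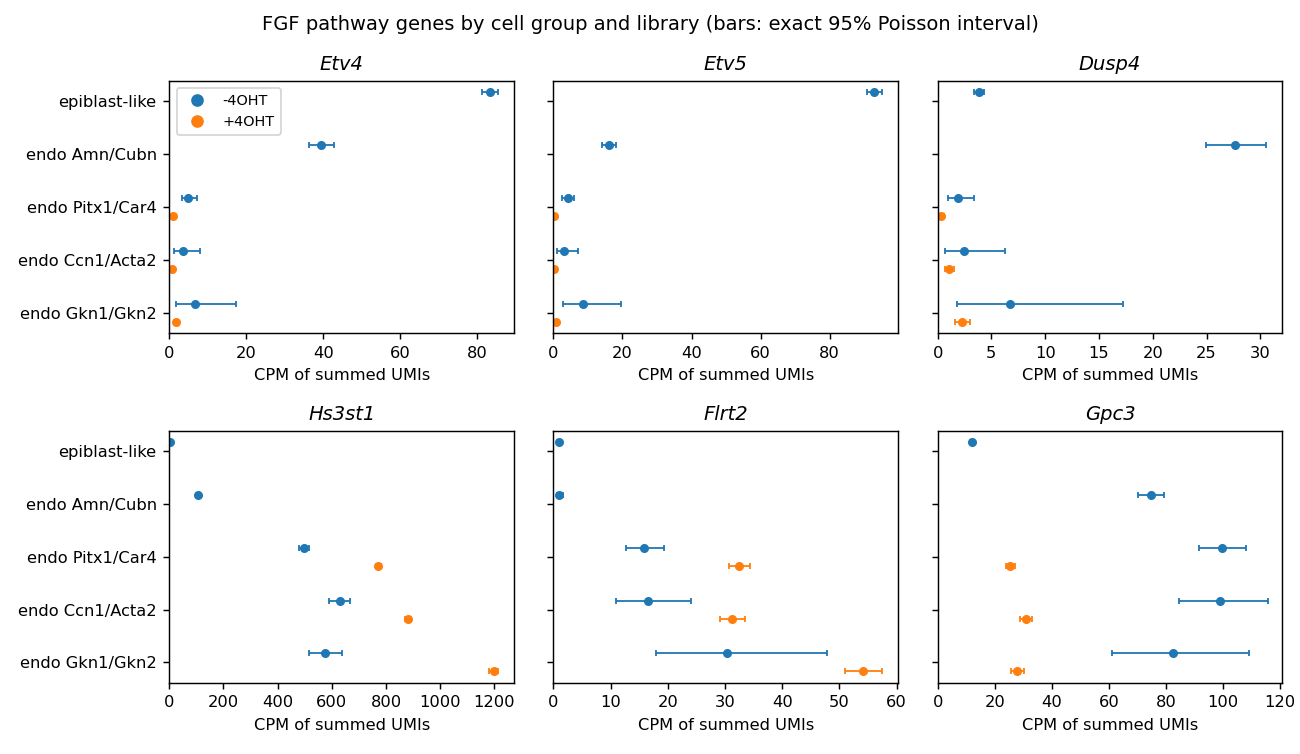
Level (horizontal axis, CPM of summed UMIs on a linear scale of its own per panel, exact 95% Poisson intervals) of the pathway genes Etv4, Etv5, Dusp4, Hs3st1, Flrt2 and Gpc3 in epiblast-like cells and in endoderm-like clusters of both libraries. Etv4 and Dusp4 were high in Amn/Cubn cells and low in the other endoderm-like clusters, where Hs3st1 and Flrt2 were higher.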

How the data were processed

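For the bulk libraries, RNA of sorted cells was made into directional single-end libraries, and the authors deposited counts of reads per gene, not normalized, for 9 libraries. Their aligner, counter, build and annotation are not given in the sources used. The deposited single-cell values are UMI counts of each barcode and gene, not normalized, made by the authors with Cell Ranger 6.1.2 on mm10 per the labels. All 10 FGF genes and the pathway lists were chosen with earlier results of these data known.

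Of the bulk table, 35 lines without a gene name were left out. Counts were tested with edgeR 4.0.16 in R 4.3.3 (TMM, filterByExpr, quasi-likelihood test, group as the only term, 9 libraries in 1 fit, Benjamini-Hochberg adjustment), a procedure first tested on simulated data. Libraries of a population differed by a chi-square per degree of freedom of 18.3 to 40.3, far above sampling noise. Same-numbered DP and Pdgfra+ libraries deviated together (r = 0.302 to 0.570), so that their numbers were taken as pairs, as seen in the data rather than stated in the labels. Pairing was not seen between DP and Oct4+ or between Oct4+ and Pdgfra+. List genes are named where past the threshold at 10 CPM or more in the higher group, at most 3 per list, direction and comparison by size of change. Exon lengths came from GENCODE M21 and promoter windows from RefSeq, where 7 of the 10 genes matched. Correlations used log2 CPM with a prior count of 2, and 1 gene among those most like a member is not reported here.

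Cells with at least 1500 genes and under 10% mitochondrial UMIs were clustered over both libraries (2000 variable genes without FGF genes, 20 principal components, 15 neighbours, Leiden resolution 0.5). Doublets were kept, and leaving out the 5% of cells per library with the highest doublet scores (576 cells) was an alternative. Fold changes between conditions were counted for genes with at least 5 CPM in 1 library. A count of 0 was given a floor of 3 UMIs. Intervals and floors cover counting error only. Alternatives were DESeq2 1.42.0, other size factors and filters, the replicate block, leaving out each library, other cell filters, clustering, weights and thinning depths.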

Additional observations from a re-analysis of the deposited data

How the results depend on the processing

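Of 310 alternative values of a bulk log2 difference, 286 kept direction and side of the threshold, 7 crossed to past it, 15 fell short of it and 2 turned in sign. Both that turned were under the threshold throughout. Without 1 library, Fgf5 between DP and Oct4+ ran from -1.79 to 1.02 and turned only without Oct4+ library 2, and Fgfr3 between DP and Pdgfra+ ran from -0.26 to 0.40 and turned only without DP library 2. All 15 that fell short were Fgf4, Fgfr1 or Fgfr2 between DP and Pdgfra+, and 13 of them came from leaving out 1 library. The members past the threshold in that comparison then numbered 0 to 3 and all genes 57 to 728 against 552, with 363, 148 and 57 without Pdgfra+ library 1, 2 or 3 and 124 and 121 without DP library 2 or 3. In the other comparisons the members ran from 7 to 8 and from 6 to 8. Of all genes, 914 were past the threshold between DP and Pdgfra+ in DESeq2 and 1023 without the filter on low counts. DESeq2 was run on the same libraries, and the cause of the difference was not tested.

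With the replicate number as a block, Fgf4, Fgfr1 and Fgfr2 kept their calls between DP and Pdgfra+ with all 9 libraries, and with the 6 libraries compared Fgfr1 had an adjusted p of 0.0686 (edgeR). All genes past the threshold were then 598 and 713, and 407 in the 6 libraries without the block. In the comparisons whose numbers do not pair the libraries, the block moved 1 member past the threshold, Fgf5 between Oct4+ and Pdgfra+ (adjusted p = 0.00446 with 9 and 0.00302 with 6 libraries, edgeR), as did dropping the filter (0.00654). The cause was not tested.

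In single cells, 374 of 390 levels moved by less than their counting interval and 16 by more. Of 100 shares of cells, 58 moved, and these were compared across depths, which change shares by construction. The share of epiblast-like Fgf4 cells with a Fgfr1 UMI was 15% at 5000 UMIs, 25% at 10000 and 45.2% unthinned. The count of 2 members past the fold in endoderm-like cells held under every alternative run, but without Amn/Cubn cells these were Fgf3 and Fgfr3 in place of Fgfr2 and Fgfr3. Levels from under 10 UMIs, as for Fgf4 in endoderm-like cells other than Amn/Cubn, are limited by depth.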
